A study of Arabidopsis thaliana with 8 samples.

Results

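Small RNA on mRNA loci was described in WT plantlets, from the 2 WT libraries of a series of 8. The table lists 24859 mRNA loci, and all of them held at least 1 read in one WT library or the other. The plantlets were Arabidopsis of the Columbia (Col-0) accession, harvested after 24 days in vitro (light for 12 h at 22 °C, then dark for 12 h at 18 °C), and a library stands for whole plantlets. The other genotypes, with 2 biological replicates each and grown alike, were the T-DNA mutants *urt1-1*, which carries an insertion in the terminal uridylyltransferase gene URT1, and *xrn4-3*, with an insertion in the cytoplasmic 5′ to 3′ exoribonuclease gene XRN4, and the double mutant *urt1-1 xrn4-3*. They are used here only beside WT values.

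Plant small RNAs that act in silencing are cut from double-stranded or hairpin RNA by DICER-LIKE (DCL) enzymes and loaded into ARGONAUTE (AGO) proteins. MicroRNAs (miRNAs) come from hairpin transcripts of their own genes. Small interfering RNAs (siRNAs) come from RNA copied by RNA-dependent polymerases, and a miRNA that cuts an mRNA can start a series of secondary siRNAs along it. Sequencing of short RNA also records pieces of abundant RNAs, among them rRNA, tRNA and plastid transcripts. A tRNA receives the letters CCA at its 3′ end after transcription, and these letters are not in the plant's nuclear tRNA genes.

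The WT libraries held 14635404 and 9895132 reads counted on mRNA loci. In what follows a level is given as counts per 1000000 counted reads of the same library (CPM), replicate 1 before replicate 2, so that 10000 CPM is 1% of a library. A single read was worth 0.0683 and 0.101 CPM. A count of 0 allowed up to 0.205 and 0.303 CPM, a limit that covers counting error only. The counts came from reads of 14 to 30 nt without regard to strand, and a read with several equally good alignments was counted at each of them. Reads from a locus and from a gene on its opposite strand could therefore not be told apart. Because of the several alignments, the totals and shares of reads given here are sums of locus counts. The same read can enter them more than once.

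Nearly every mRNA locus held a little small RNA, and a small number of loci held most of it. There were 3 and 8 loci without a read, and 23897 and 23409 loci with at least 10 reads. The median locus held 59 and 43 reads, or 4.03 and 4.35 CPM, and the middle range of loci ran from 1.91 to 9.36 CPM in replicate 1 and from 2.22 to 9.70 CPM in replicate 2. Below 1 CPM lay 2281 and 1450 loci, whereas 97 and 105 loci reached 1000 CPM. The 10 loci with the highest mean took 33.6% and 29.6% of the reads (31.6% ± 2.88, SD, n = 2), and the 50 highest took 53.0% and 48.3% (50.7% ± 3.30, SD, n = 2). The share rose to 59.3% and 56.9% for 100 loci and to 80.9% and 80.2% for 1000 loci. Counted within each library, 36 and 57 loci were enough for 50% of the reads (46.5 ± 14.8, SD, n = 2), and 3370 and 3683 loci for 90%. The Gini coefficient, which is 0 for an even spread and nears 1 when a single locus holds everything, was 0.904 and 0.897.

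**Figure D1:**
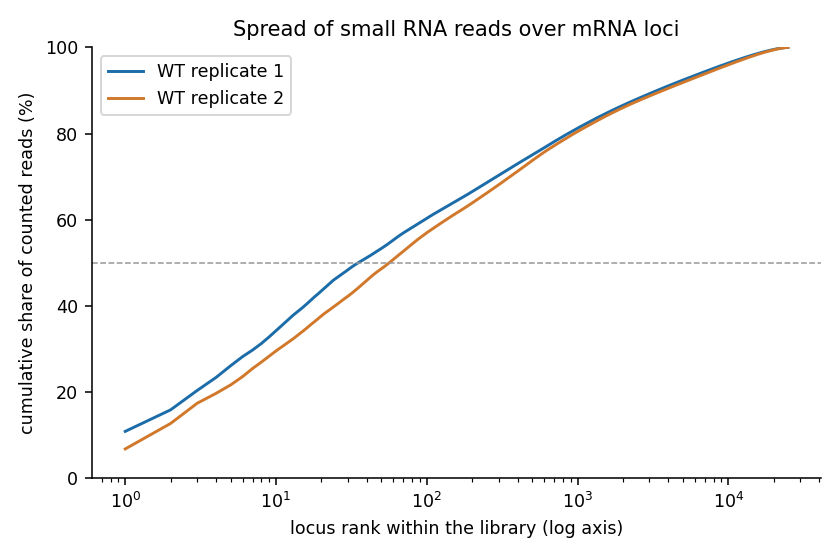
Cumulative share of counted reads (%) against the rank of the locus within its own library (log axis), one line per WT library, with a dashed line at 50%. Replicate 1 crosses that line at 36 loci and replicate 2 at 57.

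Leading loci were of several kinds. The locus with the most small RNA, AT5G14550 (chromosome 5, 4691006 to 4694055, TAIR10), held 108807 and 68020 CPM, which is 10.9% and 6.80% of the libraries. On its opposite strand lies the miRNA gene MIR398b. AT2G01021, a locus of only 102 bases within 1 kb of an rRNA gene at the start of chromosome 2 (6571 to 6672), followed with 49993 and 59227 CPM. IMB1, which encodes a bromodomain protein (chromosome 2, 14723013 to 14725650), held 44960 and 46791 CPM. The libraries were thus close for IMB1 and furthest apart, in CPM, for AT5G14550.

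The chloroplast gene PSBA (positions 383 to 1444 of the plastid genome), for the D1 protein of photosystem II, held 30148 and 22973 CPM. NEDD1 (chromosome 5, 1795294 to 1799527), whose product takes part in microtubule nucleation, held 27196 and 14749 CPM. AT2G08986 (chromosome 2, 3618058 to 3626460) held 21121 and 19290 CPM over 8403 bases. These 3 were lower in replicate 2, but only NEDD1 by nearly 2-fold, with a ratio of 1.84.

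AT4G12070 (chromosome 4, 7231822 to 7234501), with a tRNA gene on its opposite strand, held 13216 and 19573 CPM. AT4G24320 (chromosome 4, 12602298 to 12603485) held 11060 and 18980 CPM. AT5G10946 (chromosome 5, 3455607 to 3457306), which holds MIR156d on its own strand, had 14337 and 13690 CPM, and AT2G47020 (chromosome 2, 19319685 to 19322390), with MIR408 opposite, had 15452 and 12210 CPM. Of the 10 leading loci in each library, 8 were shared, and of the 50 leading loci 35.

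**Figure D2:**
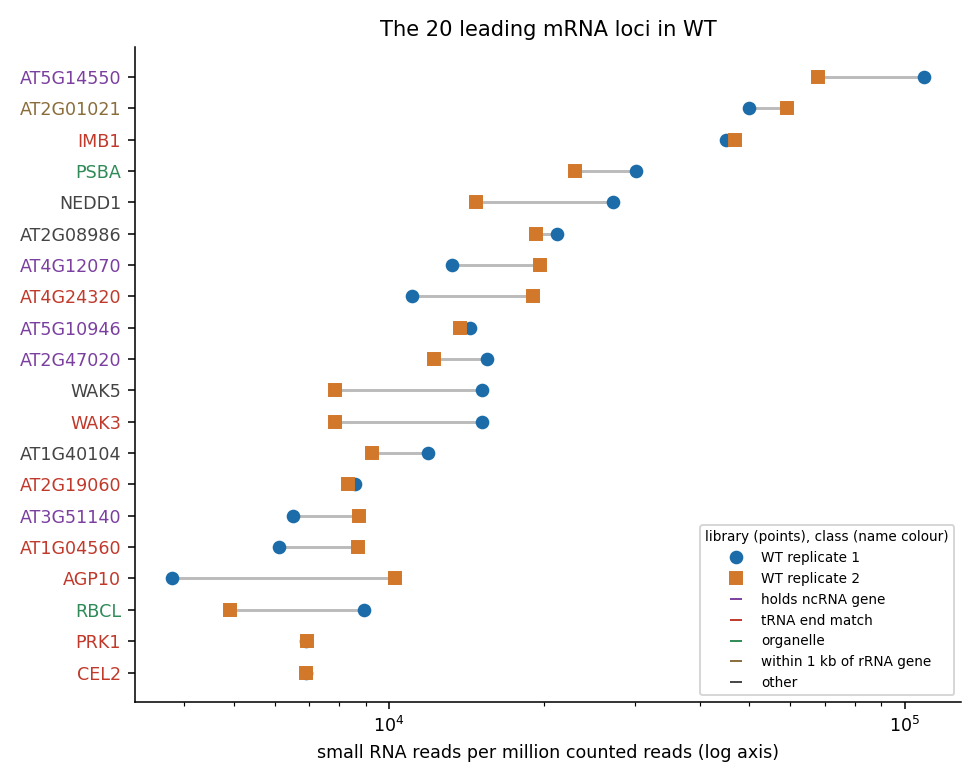
Level of the 20 mRNA loci with the highest mean in WT, in CPM (log axis), replicate 1 as circles and replicate 2 as squares, with the locus name coloured by its class. AT5G14550 stands highest in both libraries, at 108807 and 68020 CPM, and AGP10 shows the widest ratio among the 20, at 3794 and 10256 CPM.

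The other loci among the 20 highest ranged from 3794 to 15169 CPM. WAK5 and WAK3, neighbouring genes for wall-associated kinases (chromosome 1, 7429980 to 7432346 and 7434303 to 7436830), held 15169 and 15158 CPM in replicate 1 and 7866 and 7862 CPM in replicate 2. In replicate 1 these were 222005 and 221844 reads, and the genes share a run of 39 identical bases. AT1G40104 (chromosome 1, 15081952 to 15085893) held 11902 and 9251 CPM and shares a run of 134 identical bases with AT2G08986. AT2G07981, named after its values were seen, held 3838 and 3361 CPM and shares 237 bases with AT2G08986. WAK5 and WAK3 were thus near-equal in level, whereas AT2G08986, AT1G40104 and AT2G07981 share sequence and differ in level. Small RNA of a shared run could not be assigned to one of the loci.

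AT2G19060 (chromosome 2, 8257000 to 8260545) held 8586 and 8320 CPM. AT3G51140 (chromosome 3, 18997600 to 18999904), with a tRNA gene on its opposite strand, held 6510 and 8725 CPM. AT1G04560 (chromosome 1, 1244947 to 1246059) held 6103 and 8701 CPM. AGP10, for an arabinogalactan protein of the cell wall (chromosome 4, 5792207 to 5792790), held 3794 and 10256 CPM. AT3G51140, AT1G04560 and AGP10 were higher in replicate 2.

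RBCL, the plastid gene for the large subunit of Rubisco (54958 to 56397), held 8953 and 4909 CPM. PRK1, a pollen receptor-like kinase gene (chromosome 5, 13596873 to 13598976), held 6896 and 6911 CPM, and CEL2, a cellulase gene (chromosome 1, 613216 to 616191), held 6881 and 6899 CPM. PRK1 and CEL2 encode unrelated proteins, and their longest identical run was 12 bases. With 1 mismatch allowed it was 16 bases.

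The 50 leading loci were then read against the TAIR10.1 annotation and the sequences of 684 tRNA genes. Each locus was put in the first class that applied: organellar, holding a gene for a miRNA, tRNA, rRNA, snRNA or snoRNA, lying within 1 kb of an rRNA gene, matching a tRNA end, or none of these. A tRNA end match means that the last 14 to 24 bases of a mature tRNA, CCA included, have their best genome alignment, with at most 1 mismatch and at most 50 positions, inside the locus. This follows the mapping rule of the study. Such a match is a description of the sequence, and which reads were counted there was not tested. The classes were set on the TAIR10.1 extents of the loci, whereas reads were counted on those of TAIR10. Start and end were identical in both for 3754 of 24447 matched loci.

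Organellar loci numbered 210 (0.845% of loci) and took 9.21% and 5.76% of the reads. The 224 loci that hold an annotated small non-coding RNA gene (0.901%) took 20.5% and 16.3%. Loci with a tRNA end match and no earlier class numbered 1062 (4.27%) and took 21.6% and 32.9%. A read that aligned equally well to several of these loci was counted at each. How far this raised the share, or its difference between the libraries, was not tested. AT2G01021 alone made up the class near an rRNA gene, with 5.0% and 5.92%. The remaining 23362 loci (94.0%) took 43.7% and 39.2%. Of the 50 leading loci 6 were organellar, 10 held a small non-coding RNA gene, 23 had only a tRNA end match and 10 had none of these.

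MiRNA genes lay in 80 mRNA loci, which held 15.1% and 10.4% of the reads, and 5 of these loci were among the 50 highest. Their median was much lower, at 13.3 and 11.4 CPM, so that a few loci carried the class. The 49 loci with a tRNA gene held 4.25% and 4.93% and had a median of 97.1 and 96.0 CPM. The 59 loci with a snoRNA gene held 0.974% and 0.746%, and the 36 with an snRNA gene held 0.199% and 0.190%.

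For the 4 leading loci of that kind, 1 of the annotated mature arms is shown, the one known to act on the target mRNAs given after it; the sequences are from the RefSeq annotation of TAIR10.1, 5′ to 3′, with the seed (bases 2 to 8) in capitals.
miR398b-3p: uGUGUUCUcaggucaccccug
miR156d-5p: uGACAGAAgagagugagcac
miR408-3p: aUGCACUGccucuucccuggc
miR162a-3p: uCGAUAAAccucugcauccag
In TAIR10.1 these lie at chr5:4691107-4691127 (plus strand), chr5:3456713-3456732 (minus strand), chr2:19319933-19319953 (plus strand) and chr5:2634936-2634956 (minus strand). The 4 seeds differ from each other. The first is known to act on mRNAs of copper/zinc superoxide dismutases, the second on SQUAMOSA PROMOTER BINDING PROTEIN-LIKE (SPL) mRNAs, the third on laccase mRNAs and the last on DCL1 mRNA. The locus of miR162a, AT5G08185, is listed as an mRNA locus although the reference annotates it as MIR162a itself, and it held 4165 and 3291 CPM. It was named after its values were seen.

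Matches to tRNA ends were found in more of the 50 highest loci than any other feature looked for. There was one in 1072 of all loci (4.31%) but in 24 of the 50 highest (48.0%). By rank the share was 20% of the first 10 loci, 55% of the next 40, 46% of the next 50, 32.8% of the next 400 and 22% of the next 500. It was 9.83% of the 4000 loci that follow and 1.97% of the last 19859. The ranking used the same counts, and these shares are a description.

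The longest tRNA ends matched by the 8 loci of this class among the 20 highest are shown because they differ in tRNA and in length; they were built from RefSeq tRNA genes of TAIR10.1 with CCA added, and the capitals mark these added letters.
IMB1, tRNA-Gly: ttcccggctggtgcaCCA
AT4G24320, tRNA-Gly: cccggctggtgcaCCA
AGP10, tRNA-Gly: ccggctggtgcaCCA
AT2G19060, tRNA-Gln: ctcccggtaggacctCCA
AT1G04560, tRNA-Arg: tcccactgtggtcgCCA
PRK1 and CEL2, tRNA-Trp: cacgtcgggttcaCCA
WAK3, organellar tRNA-Ser: ctctctctcctCCA
Each is the longest end that found its best alignment in that locus, with 1 mismatch except for WAK3. The WAK3 match has 14 bases and 0 mismatches, and WAK5, with a near-equal level, has no tRNA end match. IMB1, AT4G24320 and AGP10 match the same tRNA-Gly over 18, 16 and 15 bases, and their levels fell in that order in both libraries (44960, 11060 and 3794 CPM in replicate 1, and 46791, 18980 and 10256 CPM in replicate 2). The tRNA-Trp end of 16 bases has 2 positions in the genome, 1 in PRK1 and 1 in CEL2. NUDT22, for a Nudix hydrolase (named after its values were seen), matched 24 bases of a tRNA-Pro end and held 3642 and 3596 CPM. The matches at the shortest length, 14 bases, lie below the 18 nt at which the RNA was cut from the gel.

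Loci that share a tRNA end in some cases held nearly the same level, and in others spread widely. Of the ends shared by at least 5 loci, the 12 whose lowest locus stood highest in replicate 2 were named sets A to L. Of these, 3 are shown because they cover a high, a middle and a low level.
end set A, tRNA-Arg: cactgtggtcgCCA
end set B, tRNA-Gly: cggctggtgcaCCA
end set L, tRNA-Arg: cagcagagtcgCCA
End set A has 13 positions in 12 loci, which held 1941 to 6103 CPM in replicate 1 (median 1957) and 3769 to 8701 CPM in replicate 2 (median 3791). Among its loci are ETR2, an ethylene receptor gene, at 1948 and 3775 CPM, and HCHIB, a chitinase gene, at 1962 and 3792 CPM. Both genes were named after their values were seen, and they differ by less than 1% in either library.

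End set B has 17 positions in 13 loci and a median of 164.7 and 2188 CPM, with a range of 159.8 to 44960 CPM in replicate 1. Of these 13 loci 10 differed at least 4-fold between the libraries, and the 3 that did not are IMB1, AT4G24320 and AGP10, which also match longer ends of the same tRNA. End set L has 14 positions in 13 loci, at 42.7 to 211.0 CPM in replicate 1 and 207.2 to 456.1 CPM in replicate 2. In every one of the 12 sets the median level was higher in replicate 2, with median ratios from 1.76 (set C) to 13.2 (set B), a description, since the sets were picked on that library.

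**Figure D3:**
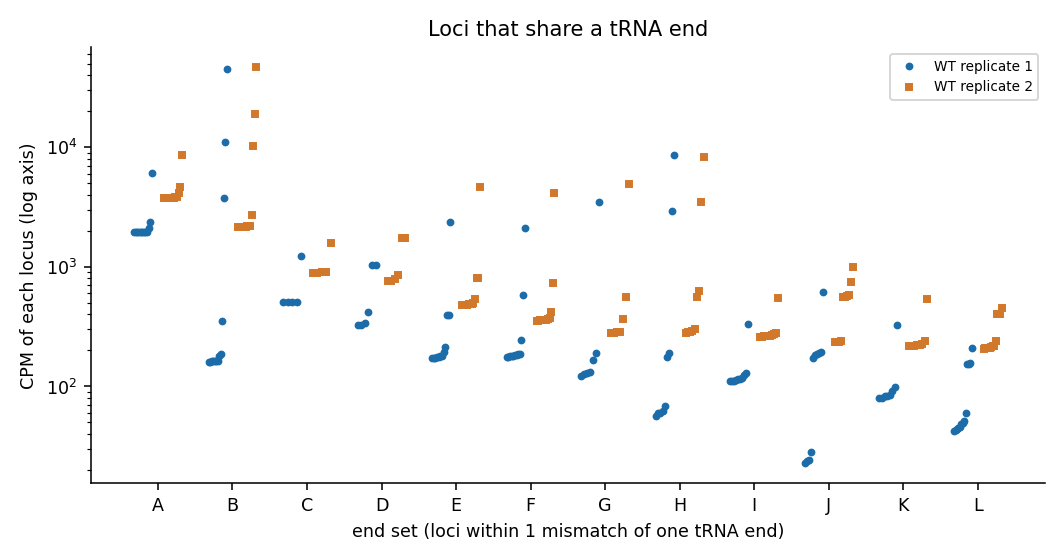
Level in CPM (log axis) of each locus in the 12 sets of loci that share a tRNA end, replicate 1 as circles and replicate 2 as squares. Most loci of set A lie side by side, with a median of 1957 CPM in replicate 1, while set B runs from 159.8 to 44960 CPM, and the median of replicate 2 lies higher in every set.

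Some leading loci with a tRNA end match had the same lowest libraries in the other genotypes, and WAK3 did not. The loci given here were picked for their pattern after the values were seen. At IMB1 the *urt1-1* libraries had 34407 and 46416 CPM, the *xrn4-3* libraries 53862 and 11736 CPM, and the double mutant 7742 and 30968 CPM. AT2G19060, which matches a tRNA-Gln end, was at 7294 and 10202, 11032 and 2685, and 1904 and 5364 CPM in the same order. PRK1, with its tRNA-Trp end, was at 6706 and 7785, 8752 and 2729, and 1730 and 3936 CPM. WAK3, with its tRNA-Ser match, was at 17858 and 9364, 12487 and 11229, and 12562 and 10271 CPM, close to WAK5. For IMB1, AT2G19060 and PRK1, with ends of different tRNAs, the lowest of the 8 libraries was replicate 1 of the double mutant and the next lowest was *xrn4-3* replicate 2.

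At AT5G14550 the *urt1-1* libraries had 94008 and 73638 CPM, the *xrn4-3* libraries 85108 and 98667 CPM, and the double mutant 50765 and 49110 CPM. NEDD1 was at 32734 and 15326, 23225 and 18741, and 21924 and 13987 CPM, and WAK5 at 17868 and 9366, 12487 and 11237, and 12571 and 10272 CPM. At NEDD1 and WAK5 replicate 1 exceeded replicate 2 in all 4 genotypes, and in WT the ratios were 1.84 and 1.93. HSP23.6-MITO had a WT ratio of 1.93 as well, from 8557 and 4427 CPM, and AT5G51840, named after its values were seen, held 8531 and 4412 CPM.

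Without respect to class, small RNA was uneven over the chromosomes in its total but even in its median. Chromosomes 1 to 5 hold 6449, 3821, 4880, 3778 and 5721 loci. Chromosome 1 took 19.7% and 20.9% of the reads, chromosome 2 took 23.1% and 24.1%, chromosome 3 took 9.22% and 11.1%, chromosome 4 took 10.9% and 14.6%, and chromosome 5 took 27.8% and 23.6%. The median locus, by contrast, held 3.83 to 4.03 CPM in replicate 1 and 4.24 to 4.45 CPM in replicate 2 on every one of these chromosomes.

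Single loci made up much of the totals. AT5G14550 held 39.1% and 28.8% of the reads of chromosome 5, and AT2G01021 held 21.6% and 24.6% of those of chromosome 2. Without its leading locus chromosome 5 took 17.0% and 16.8% of all reads, and chromosome 2 took 18.1% in both libraries. The leading loci of chromosomes 1, 3 and 4 were WAK5, AT3G51140 and AT4G12070, which held 7.69%, 7.06% and 12.1% of their chromosome in replicate 1 and 3.77%, 7.86% and 13.4% in replicate 2. The 50 leading loci fell 12, 11, 5, 7 and 9 to chromosomes 1 to 5, and 6 to the chloroplast.

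Plastid and mitochondrial loci were few and rich in small RNA. The 88 chloroplast loci took 7.87% and 4.85% of the reads and had a median of 156.8 and 85.4 CPM. The 122 mitochondrial loci took 1.33% and 0.910% and had a median of 24.1 and 18.7 CPM. Per kb of locus the chloroplast median was 232.8 and 125.8 CPM per kb and the mitochondrial median 49.7 and 43.7 CPM per kb, beside 1.76 to 1.91 and 1.96 to 2.09 CPM per kb on the nuclear chromosomes. PSBA held 38.3% and 47.3% of the chloroplast reads. PSBC and PSBD, for the CP43 and D2 proteins of photosystem II, held 7862 and 2639 CPM and 6219 and 1661 CPM, PSAA, for a core protein of photosystem I, held 1609 and 1059 CPM, and PSBB, for the CP47 protein of photosystem II, held 1309 and 855.2 CPM. These 4 were named after their values were seen, and each was lower in replicate 2. The leading mitochondrial locus, ATMG00030 (11918 to 12241 of the mitochondrial genome), held 2381 and 1777 CPM. ATCG00840 and ATCG01300, a further pair named in that way, held an identical count in each library, 35797 and 17996 reads.

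Locus length ranged from 22 to 31258 bases, with a median of 2024. From 500 bases on, longer loci held more small RNA. In bins that begin at 500, 1000, 2000, 3000 and 5000 bases, the median rose from 1.78 through 2.73, 4.1 and 6.29 to 11.7 CPM in replicate 1. In replicate 2 it rose from 2.02 through 3.13, 4.45 and 6.87 to 12.5 CPM. Across the 24859 loci the rank correlation of length with CPM was 0.359 and 0.380, as a description over loci that share a library.

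Per kb, loci of 1000 bases and more were nearly level, with medians of 1.68 to 1.80 CPM per kb in replicate 1 and 1.83 to 2.02 in replicate 2. Loci of 500 to under 1000 bases had 2.39 and 2.63 CPM per kb. The 878 loci under 500 bases stood out, with 13.6 and 12.2 CPM per kb and a wide middle range of 3.46 to 67.6 and 3.88 to 57.7. They are 3.53% of the loci and took 9.08% and 9.54% of the reads, of which AT2G01021 alone held 5.0% and 5.92%. The rank correlation of length with CPM per kb was -0.124 and -0.138. Per kb the highest nuclear locus was AT2G01021 too, followed by AT5G14550 and IMB1, and AT3G20362 (434 bases, 4106 and 4742 CPM), AT1G02590 (624 bases, 5940 and 6396 CPM, with a tRNA gene opposite) and HSP23.6-MITO, for a mitochondrial small heat shock protein (8557 and 4427 CPM), were among the 10 highest.

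**Figure D4:**
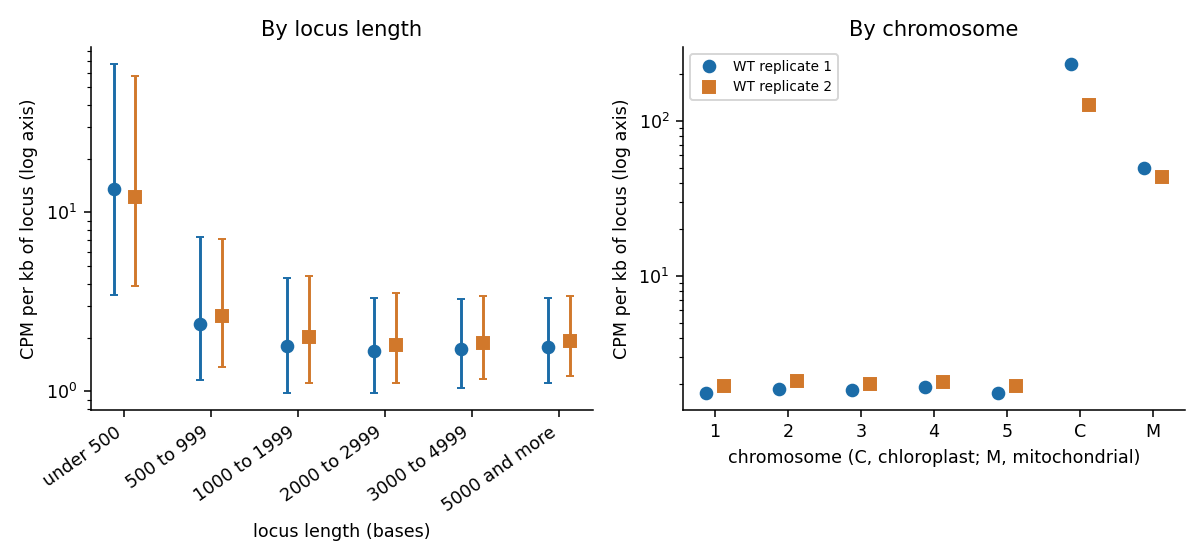
CPM per kb of locus (log axes) by locus length, as medians with bars from the lower to the upper quartile over loci, and by chromosome, as medians, for both WT libraries. Loci under 500 bases lie at 13.6 and 12.2 CPM per kb, and chloroplast loci at 232.8 and 125.8 CPM per kb.

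The level per kb differed a little with the number of mRNA loci nearby. Nuclear loci were put in 5 groups of equal size by how many listed loci lie within 500 kb. In the group with the fewest neighbours, 7 to 210, the median was 2.16 and 2.40 CPM per kb. In the other groups it ran from 1.70 to 1.82 and from 1.87 to 2.03 CPM per kb. The group with the fewest neighbours also had the shortest loci, with a median of 1858.5 bases against 2045.5 to 2110. Length and neighbour number were not separated.

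Loci from lists of silencing and of photosynthesis genes covered a wide range. Of the lists, the 21 nuclear genes for Rubisco small subunits, Rubisco activase and the antenna of the photosystems lay highest, with a median of 493.2 and 330.5 CPM beside 4.03 and 4.35 CPM over all loci, and all 21 were in the top 10% of loci. CAB1 held 1920 and 1534 CPM, LHB1B2 held 1412 and 1326 CPM, CAB2 held 1235 and 1029 CPM and CAB3 held 1240 and 1001 CPM. All of these encode chlorophyll a/b-binding proteins of the antenna. Runs shared by genes of this list were not sought, and a read that fits several of them was counted at each.

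The 23 listed pentatricopeptide repeat (PPR) genes, known as a source of secondary siRNAs, had a median of 153.4 and 122.2 CPM, and 14 of them (60.9%) were in the top 10% of loci. AT1G62910 held 801.8 and 681.9 CPM, AT1G63130 held 799.9 and 626.4 CPM, AT1G63400 held 655.1 and 745.1 CPM and RPF3 (AT1G62930) held 742.3 and 635.5 CPM. AT1G63130 also holds MIR5652 on the opposite strand, and AT1G63400 has a tRNA end match. The range within the list was wide, from 1.98 to 801.8 CPM in replicate 1. Here too shared runs were not sought, and a read that fits several of the genes was counted at each.

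The 17 listed other sources of secondary siRNAs had a median of 16.7 and 12.2 CPM. The highest was SUMM2, an immune receptor gene, at 511.5 and 898.0 CPM, but it belongs to end set C, whose other members include IAA14 at 511.7 and 897.9 CPM (named after its values were seen). AFB3 and AFB2, genes for auxin receptors that miR393 is known to target, held 113.6 and 134.4 CPM and 109.3 and 114.6 CPM. The immune receptor gene AT5G43740 held 128.1 and 91.3 CPM.

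The 45 transcription factor genes targeted by miRNAs had a median of 7.72 and 8.89 CPM, and 7 of them (15.6%) were in the top 10% of loci. Among the 7 is NF-YA10, named after its values were seen, which has a tRNA end match and held 25.3 and 198.5 CPM. SPL2 and SPL10 led, with 2281 and 2063 CPM and 1027 and 718.8 CPM. HAM3 and HAM1, GRAS genes that miR171 is known to target, held 151.4 and 92.7 CPM and 145.8 and 94.5 CPM. The 6 listed SPL genes carry the stretch that pairs with miR156d-5p shown above, and it is printed because the same letters occur at loci of very different level; it was read from the RefSeq TAIR10.1 genome, 5′ to 3′, with the letters that differ from its perfect complement in capitals.
SPL2, SPL10, SPL11, SPL9 and SPL15: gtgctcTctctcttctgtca
SPL3: TtgctTactctcttctgtca
SPL11, SPL9 and SPL15, named after their values were seen like SPL3, held 21.7 and 20.2 CPM, 20.8 and 19.8 CPM, and 20.4 and 18.7 CPM. SPL3 held 10.7 and 12.4 CPM. The 5 loci with the identical stretch thus ranged from 20.4 to 2281 CPM in replicate 1 and from 18.7 to 2063 CPM in replicate 2. The longest identical run shared by SPL2 and SPL10 was 21 bases.

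The 9 enzyme and nutrient genes targeted by miRNAs stayed near the level of all loci, with a median of 5.6 and 7.18 CPM. The highest were APS1, for an ATP sulfurylase, at 62.4 and 50.8 CPM, PHO2, for a ubiquitin-conjugating enzyme of phosphate balance, at 23.9 and 19.8 CPM, SULTR2;1, for a sulfate transporter, at 11.6 and 17.0 CPM, and APS4, at 9.91 and 14.2 CPM. The superoxide dismutase genes CSD1 and CSD2, named after their values were seen, held 4.71 and 5.15 CPM and 2.60 and 3.33 CPM.

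The 17 genes of the silencing machinery had a median of 7.86 and 9.20 CPM. AGO2 led with 222.3 and 274.7 CPM, followed by AGO1 with 52.6 and 39.0 CPM, DCL1 with 27.9 and 23.4 CPM and DCL3 with 14.5 and 22.0 CPM. DCL1 holds MIR838 on its own strand. The genes mutated elsewhere in the series held little small RNA in WT. URT1 (AT2G45620) held 9.43 and 15.3 CPM. Beside this stood 5.92 and 7.28 CPM for *urt1-1*, 14.5 and 332.5 CPM for *xrn4-3*, and 8.14 and 6.52 CPM for the double mutant. XRN4 held 12.0 and 11 CPM in WT and 6.65 to 12.4 CPM in the mutant libraries. The 332.5 CPM of URT1 in one *xrn4-3* library stood apart from its other 7 values, and small RNA at these loci is no check of the insertions.

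The WT libraries resembled each other over most loci. Across the 24859 loci the rank correlation of their counts was 0.920, and Pearson's r of log2(CPM + 1) was 0.946, as descriptions over loci. Of the 22917 loci with at least 10 reads in each, 88.5% lay within 2-fold. A locus was said to differ where the CPM differed at least 4-fold at a mean of at least 10 CPM. With 1 library against 1 there is no test, and the intervals given here are 95% exact binomial intervals that cover counting error only.

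Of the 5972 loci with a mean of at least 10 CPM, 204 (3.42%) differed by this measure. There were 66 (1.11%) higher in replicate 1 and 138 (2.31%) higher in replicate 2. The 66 loci took 0.396% of the reads of replicate 1 and 0.0603% of those of replicate 2. The 138 loci took 0.478% and 3.77%, a read being counted at each locus it fits. Differing loci therefore carried a small share of either library, and none of the 20 highest loci was among them.

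**Figure D5:**
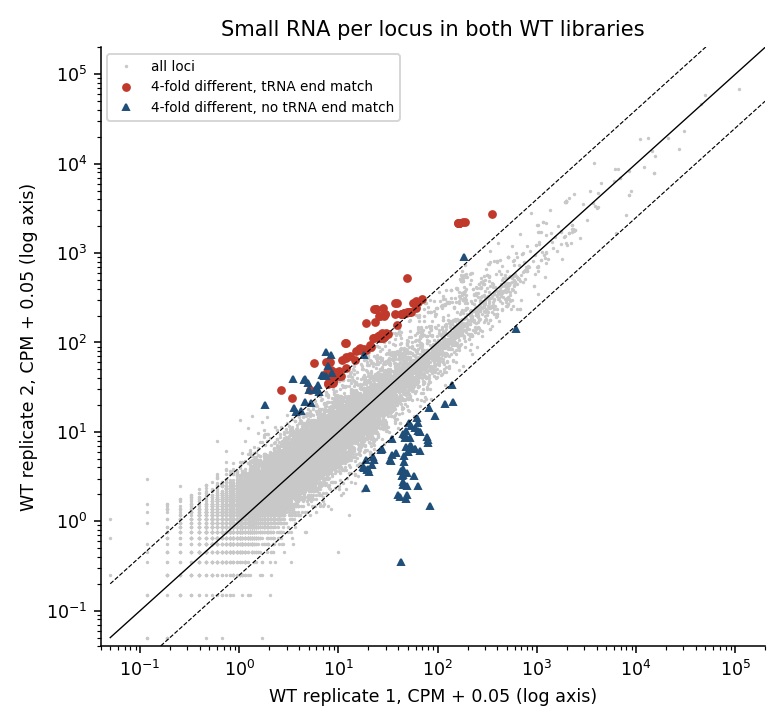
Level of every locus in WT replicate 1 against WT replicate 2, as CPM + 0.05 on log axes, with a solid line at equality and dashed lines at 4-fold. Among the 204 loci that differed, circles mark a tRNA end match and triangles none, and the 114 circles all lie above the upper dashed line.

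The loci higher in replicate 2 were mostly loci with a tRNA end match, 114 of 138 (82.6%), compared with 12.0% of the 5972 loci and 0 of the 66 loci higher in replicate 1. None of the matches in the 138 loci was 18 bases or longer, as was the case for 14 of the 5972 loci and for 3 of the 50 highest. The 5 largest differences were all in end set B. LSH4, for a nuclear protein of the ALOG family (chromosome 3, 8326825 to 8328132), held 159.8 and 2169 CPM, a ratio of 13.6 (95% interval 13.0 to 14.2). AT1G51340 (160.6 and 2169 CPM), AT2G28590 (162.3 and 2171 CPM), AT4G03460 (164.1 and 2188 CPM) and GRP18, for a glycine-rich protein (164.3 and 2177 CPM), had ratios of 13.3 to 13.5.

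These 5 loci moved together across the other genotypes as well. The *urt1-1* libraries had 566.6 and 195.7 CPM at LSH4, the *xrn4-3* libraries 180.6 and 72.1 CPM, and those of *urt1-1 xrn4-3* 135.5 and 1093 CPM. Replicate 2 was thus higher in WT and in the double mutant, and replicate 1 in both single mutants. Of the 138 loci, 20 (14.5%), 46 (33.3%) and 138 (100%) were higher in replicate 2 of *urt1-1*, of *xrn4-3* and of the double mutant. Over the 5972 loci the shares were 41.9%, 52.5% and 61.8%. In *urt1-1 xrn4-3*, 66 of the 138 were at least 4-fold higher in replicate 2, beside 204 of the 5972 loci. Loci that share a tRNA end can hold counts of the same reads. The 138 loci are therefore not separate cases, and these counts are a description.

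The 24 loci higher in replicate 2 without a tRNA end match were mostly of low level. The highest of them was AT1G01980 at 183.0 and 896.3 CPM. TMO6, for a transcription factor of the Dof family, held 3.42 and 38.6 CPM. Both were named after their values were seen.

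The 66 loci higher in replicate 1 were mostly in no class. None had a tRNA end match, beside 12.0% of all loci with a mean of at least 10 CPM. A small non-coding RNA gene was held by 2 (3.03%), a share close to the 2.26% of all loci at that level. In no class were 64 (97.0%), beside 83.1% at that level. The median ratio of the 66 was 6.88. AT5G50060 (chromosome 5, 20362550 to 20363461) held 619 reads, or 42.3 CPM, in replicate 1 and 3 reads, or 0.303 CPM, in replicate 2, a ratio of 139.5 (95% interval 47.5 to 678.3). In the mutant libraries it held 0.732 to 2.23 CPM. The value of replicate 1 thus stood apart from all 7 other libraries.

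CYCD7;1, for a D-type cyclin, held 83.6 and 1.41 CPM (ratio 59.1, 95% interval 35.1 to 108.4), and 0.662 to 3.01 CPM in the mutants. CYP705A2, for a cytochrome P450, held 62.8 and 2.43 CPM, AT5G52490 held 48.4 and 1.72 CPM, and AT2G34060 held 49.3 and 1.92 CPM, with ratios of 25.7 to 28.2. Of the 66 loci, 25 had a WT replicate 1 value at least 4-fold above that of every one of the other 7 libraries, and 0 of the 138 had such a value in WT replicate 2. The 66 and the 138 were picked for a 4-fold difference between the WT libraries, which is part of this measure. No other of the 5972 loci could meet it, and these counts are a description. Of the 66, 19 lay between 40 and 50 CPM in replicate 1, and 16 of the 138 did so in replicate 2. The share of the 5972 loci in this window was not counted.

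Of the 66 loci, 17 (25.8%), 38 (57.6%) and 46 (69.7%) were higher in replicate 2 of *urt1-1*, of *xrn4-3* and of the double mutant. The shares over the 5972 loci were the same 41.9%, 52.5% and 61.8%. At least 4-fold higher in replicate 1 were 6 of them in *urt1-1*, 6 in *xrn4-3* and 1 in the double mutant, beside 20, 32 and 7 of the 5972 loci. The following loci were picked from the 66 after their values were seen and are given as single loci. COR15A held 58.8 and 6.37 CPM in WT. In *urt1-1* it held 50.4 and 7.61, in *xrn4-3* 60.8 and 10.5, and in the double mutant 21.8 and 6.89 CPM. COR15B held 38.1 and 5.76, 29.0 and 8.77, 36.3 and 5.61, and 14 and 4.66 CPM in the same order. KIN2 held 140.3 and 33.2, 78.1 and 54.3, 125.4 and 38.6, and 55.4 and 49.9 CPM. For COR15A, COR15B and KIN2 replicate 1 was the higher library in all 4 genotypes. TCH4, for a xyloglucan-modifying enzyme of the cell wall, held 144.0 and 21.5 CPM in WT but 41.6 and 93.1 CPM in *xrn4-3*, where the order was turned.

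The 50 leading WT loci were also set against the mutants. They were chosen on the WT libraries that enter the contrast, and their counts are a description. By edgeR's likelihood ratio test with Benjamini-Hochberg adjustment, 0 of the 50 were called in *urt1-1*, in *xrn4-3* or in the double mutant, beside 0.0283%, 4.45% and 11.1% of the 24722 loci tested. With 2 libraries per genotype, the lack of a call does not show that a level was unchanged. At an unadjusted p under 0.05 there were 0, 1 and 9. The share of all loci at that threshold was not counted, so no excess can be read from these numbers. The quasi-likelihood test called 0 in each, beside 1808 higher and 86 lower of 24722 loci in the double mutant. DESeq2 called 0, 0 and 3, beside 1705 higher and 264 lower of 22931 loci in the double mutant. RBCL had the lowest adjusted p, 0.0598 by edgeR's likelihood ratio test in *urt1-1 xrn4-3*, with 2647 and 1569 CPM there and a log2 change of -1.74. In the double mutant the log2 change was negative at all of the 50 but HSP23.6-MITO (0.040) and AT5G51840 (0.041). In *xrn4-3* it was negative at all but AT2G47020 (0.26), ATCG00840 and ATCG01300 (0.15 each). Loci picked for a high WT level lean to lower values elsewhere, so these directions are a description too.

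The share of the 10 leading loci, taken in each library by itself, was 34.2% and 29.6% in WT, 30.9% and 31.4% in *urt1-1*, 31.9% and 27.2% in *xrn4-3*, and 42.0% and 32.6% in *urt1-1 xrn4-3*. Exact two-sided permutation tests against WT gave p = 1, 0.667 and 0.667, with 0.33 as the smallest p that 2 libraries against 2 can give. In *urt1-1 xrn4-3* the share was 23.8% and 23.3% without the nitrate reductase genes NIA1 and NIA2, against 34.2% and 29.6% in WT counted in the same way, so that the direction turned (exact permutation p = 0.33). The organellar share was 9.21% and 5.76% in WT, 7.82% and 7.32% in *urt1-1*, 7.15% and 6.53% in *xrn4-3*, and 4.63% and 2.56% in *urt1-1 xrn4-3* (exact permutation p = 1, 1 and 0.33). The values of *urt1-1 xrn4-3* did not overlap with those of WT, and that p is the smallest possible. Without NIA1 and NIA2 they were 6.31% and 3.01%, beside 9.21% and 5.77% in WT, and overlapped (exact permutation p = 0.667).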

How the data were processed

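Small RNA of 18 to 30 nt was sequenced by the study from 3 µg of RNA of each plantlet sample. The authors trimmed adapters (base calls from CASAVA 1.8.2), kept reads of 14 to 30 nt, and aligned them to TAIR10 by Bowtie 1.0.0. With 1 mismatch allowed, reads with over 50 genomic hits were left out, and each other read stayed at its top-scoring position or positions. Counting on the mRNA annotation used bedtools 2.17.0 at default settings, hence without strand, and a read placed at several loci counts at each. The deposited counts are whole numbers for 24859 loci. The deposited CPM columns of WT are these counts divided by the library total and a factor (0.922 and 0.970) and were used only as an alternative. Columns of per-sample values left unused numbered 0.

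CPM here are counts over the total of counted reads. Depth was 14635404 and 9895132 reads in WT and 6045353 to 30064224 in the other libraries. Libraries were grouped by their labels. Mutant contrasts used edgeR 4.0.16 in R 4.3.3 with TMM factors, filterByExpr (count minimum 10), 1 coefficient per genotype in a fit of all 8 libraries, the likelihood ratio test and an adjusted p of 0.05. Shares were compared by exact permutation tests in Python 3.11.15 (numpy 2.4.6, scipy 1.17.1, pandas 2.3.3), and figures drawn with matplotlib 3.10.9. On simulated data, with *urt1-1* against WT and 24403 loci tested, the test found 196 of 200 loci changed 8-fold and called 30 unchanged loci. These counts were drawn from the test's own model, with the spread it estimated from the 8 libraries. The simulation therefore checks the code, and does not show what the test finds at smaller changes.

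Locus positions are those of the table (TAIR10). Symbols and non-coding genes came from RefSeq TAIR10.1 by locus code (24447 of 24859 matched), and 29 organellar symbols from a supplementary table of the study. Of the matched loci, 3754 had identical start and end in both annotations. Loci without a match could only be classed as organellar or as none. tRNA ends were sought in the TAIR10.1 genome. The loci and lists were chosen with earlier results of these data known. Named loci were the 20 highest by mean CPM, the 10 highest nuclear loci per kb, the leading locus of each chromosome and length bin, the 5 most different loci in each direction, up to 5 with a non-coding gene, up to 4 of each of 7 lists (135 genes), and URT1 and XRN4. Any other locus was named after its values were seen.

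Alternatives were TMM and RLE factors, library size only, no filter, other thresholds, overlapping loci counted once, nuclear loci only, the quasi-likelihood test, DESeq2 1.42.0, only the genotypes compared, the replicate block, no NIA1 and NIA2, and each library left out. Leaving out loci with a tRNA end match or a non-coding gene was added after seeing the data (4 alternatives).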

Additional observations from a re-analysis of the deposited data

How the results depend on the processing

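Over all loci, the share of the 10 leading loci was 31.6% of the reads, against 38.4% without loci with a tRNA end match and 27.7% without loci that hold a non-coding RNA gene, each as a share of the remaining reads. Without loci that hold a non-coding RNA gene, the share of the 50 leading loci was 45.0% and 75 loci made up 50% of the reads, and the organellar share was 10.3% without tRNA end matches. These exclusions were chosen after seeing the data. The 204 differing loci became 880 at 2-fold, 53 at 8-fold (28 higher in replicate 1 and 25 in replicate 2), 359 at a mean of 1 CPM and 90 without tRNA end matches (66 and 24). With TMM factors they were 72 and 119, and with RLE factors 80 and 110.

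The study describes replicates of a genotype as plants from separate growths; whether a number marks the same growth in all genotypes is not stated in the sources used here. Correlations of same-numbered deviations between genotypes were positive, from 0.0325 to 0.366, and not all over 0.1, so the pairing was not established. With the replicate block, 1 of the 50 leading loci was called in *urt1-1 xrn4-3*, as with library size only and with the top 50 taken without tRNA end matches, against 0 in the report and 3 by DESeq2. With a library left out the number was 0 to 3, a lone library being assumed to vary like the others. Over all loci the block moved the calls in *urt1-1 xrn4-3* from 2474 higher and 260 lower to 2896 and 521.

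Mutant minus WT, in percentage points, the share of the 10 leading loci differed by -0.74 in *urt1-1* (-3.08 to 1.61 with a library left out; 1.61 without WT replicate 1), by -2.33 in *xrn4-3* (-4.68 to 0.018; 0.0092 without WT replicate 1 and 0.018 without *xrn4-3* replicate 2) and by 5.40 in *urt1-1 xrn4-3* (0.68 to 10.13; -8.37 without NIA1 and NIA2). The organellar share differed by 0.084 in *urt1-1* (-1.64 to 1.81; -0.17 without *urt1-1* replicate 1 and -1.64 without WT replicate 2), by -0.65 in *xrn4-3* (-2.37 to 1.08; 1.08 without WT replicate 1) and by -3.89 in *urt1-1 xrn4-3* (-5.61 to -2.17). The cause of these changes was not tested. Of the remaining values, 99 for the main results and 74 for chromosomes and lengths were labelled as unchanged, and 50 of the latter as moved. For mutant minus WT shares, unchanged means only that the sign was kept, however far the value moved. Counts of loci had to stay within a factor of 1.5, or be identical for calls. WT shares and levels had to stay within the SD of the 2 WT libraries. For chromosomes and lengths, leaving out 1 WT library cannot exceed that SD. The 16 unchanged values of each such setting are therefore no check. Depth limits loci near 1 read, worth 0.0683 and 0.101 CPM.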
